A study of Mus musculus with 6 samples.

Results

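Caspases, the proteases that carry out apoptosis, were examined together with their adaptors and inhibitors in sorted LSK cells of NIKaly/aly and wild-type mice. The 8 genes were Casp8, Casp9, Casp2, Casp6, Fadd, Apaf1, Cflar and Xiap, taken by the gene name that the array files give each non-control probe. They were 8 of 34821 gene names and were read by 11 of the 55681 probes on the array: 4 probes for Cflar and 1 for each of the other genes. All 11 probes passed the filter on dim probes, among 21220 that did.

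The study set 3 LSK samples homozygous for the aly allele of NIK (samples 2, 4 and 6) against 3 LSK samples of wild-type mice (samples 1, 3 and 5). LSK cells are lineage-negative, Sca-1+ c-Kit+ bone marrow cells, the compartment that holds hematopoietic stem cells and multipotent progenitors. Alternative NF-kB signalling depends on the kinase NIK, and aly is a mutation that makes it defective. The cells were sorted fresh and given no treatment that the labels name. The mutation is present in all cells of these mice, so an effect inside LSK cells and one from their surroundings cannot be told apart. Ages, and whether each sample was 1 mouse or a pool, are not given in the sources used here. All p-values thus rest on sample-to-sample spread, part or all of which may be technical.

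Apoptosis starts along 2 main routes. In the extrinsic route, a ligated death receptor recruits the adaptor Fadd, which gathers and activates the initiator Casp8, and the caspase-like protein c-FLIP, the product of Cflar, competes in that complex. In the intrinsic route, cytochrome c released from mitochondria makes Apaf1 assemble the apoptosome, which activates the initiator Casp9. Effector caspases then cut cellular proteins, and Xiap binds and blocks Casp9. Cflar, Xiap, Birc2 and Birc3 are known targets of NF-kB in other cells, and Birc2 and Birc3 encode ligases of the complex that keeps NIK low.

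Cflar is alternatively spliced and its 4 probes are spread over 40630 bases. They are therefore shown in full or in part with the probe of Casp8, which lies on the same strand further along mouse chromosome 1. Positions are in build mm9, as the array files give them. Cflar probe 1, written for a single Ensembl transcript, lies at chr1:58770546-58770605. Cflar probe 2, for transcript variant 2, lies at chr1:58789994-58790053. Cflar probes 3 and 4, both for transcript variant 1, lie at chr1:58810660-58810719 and chr1:58811116-58811175. The 4 probes span 40630 bases, and 90425 bases separate the last of them from the Casp8 probe at chr1:58901601-58901660. RefSeq's gene list for GRCm38.p6 places a single gene, the long noncoding RNA Gm39646, between Cflar and Casp8. Capitals mark each TAA, TAG or TGA, the stop triplets, wherever they fall in the letters as the probe is written.
Casp8: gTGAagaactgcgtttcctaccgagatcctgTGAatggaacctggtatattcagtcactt
Cflar probe 1, first 30 bases: gggacttgggaagttggagagcTGActcct
Cflar probe 2, first 30 bases: ctttcttgcTGAtgtaTAAattgcctcctt
Cflar probe 3: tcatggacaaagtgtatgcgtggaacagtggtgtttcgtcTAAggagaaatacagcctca
Cflar probe 4, first 30 bases: gattTGAcacTGAatgTAActTGAgactta
Over their full 60 bases, the Casp8 probe and Cflar probe 3 keep 2 of the 3 reading frames free of a stop triplet, whereas Cflar probes 1, 2 and 4 have a stop in every frame. Of all tested probes, 79.7% have at least 1 stop-free frame. The overlap of the probes with exons was not examined here.

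All arrays were on 1 slide. Consecutive sample numbers correlated at 0.974 to 0.989 over tested probes, and arrays of 1 genotype at 0.934 to 0.974. Samples 1 and 2 stood apart in erythroid markers and were also highest in mature neutrophil, B cell, and T and NK cell markers. The values of these lists are given further below. The LSK markers Kit and Ly6a (Sca-1) were well above background on all 6 arrays. The mean log2 level of 9 tested LSK markers was 4.01 to 4.10 in NIKaly/aly and 3.83 to 4.04 in WT samples. Of these, 6 had a higher mean in NIKaly/aly and 3 a lower one. Their log2 differences ran from -0.68 for Ly6a (SE 0.46) to 0.78 for Procr (SE 0.28). Mature neutrophil markers were also well above background on all 6 arrays, although the gate selects against mature cells. Their mean log2 level was 4.63 to 6.94 in NIKaly/aly and 4.74 to 7.44 in WT samples. All levels below are log2 processed signal relative to the array's 75th percentile. They show differences between arrays for 1 probe, never between probes, and in bulk RNA fewer cells of a type and less RNA per cell cannot be told apart.

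No difference between genotypes was detected for any of the 8 genes. With limma, no member probe reached an adjusted p under 0.05, and all 11 had an adjusted p of 0.99998. The fit called 0 of the 21220 tested probes (0%). At an unadjusted p under 0.05 it called 0 member probes, against 271 of all tested probes (1.28%). The samples of the genotypes overlapped for all 11 member probes, and 4.57% of all tested probes had groups that did not overlap. Of the member probes 7 had a higher mean in NIKaly/aly and 4 a lower one, with a median difference of 0.048, against -0.0089 over all tested probes.

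**Figure D1:**
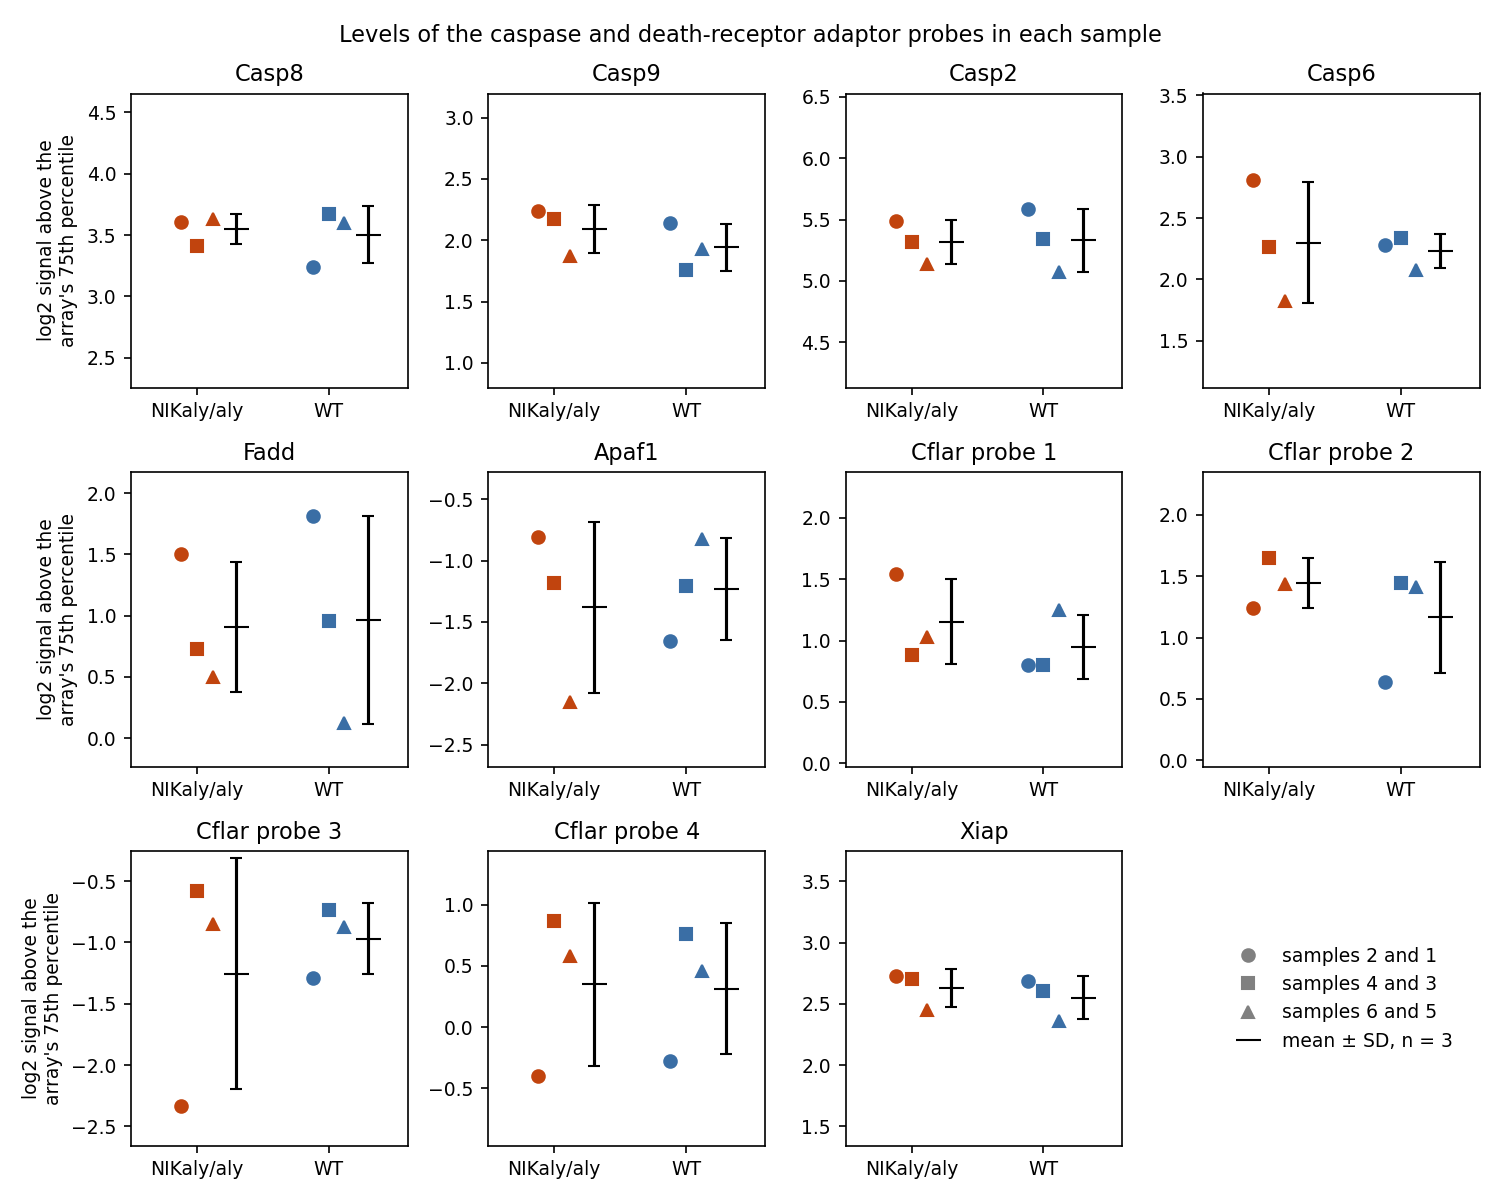
Log2 level above the array's 75th percentile (vertical axis) of the 11 member probes, with NIKaly/aly samples left of WT samples in each panel, points for samples and lines for means. For each probe the ranges of the 2 genotypes overlap, as in Casp2 at 5.14 to 5.49 in NIKaly/aly and 5.07 to 5.59 in WT.

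Casp8, the initiator of the death-receptor route, had levels of 3.61, 3.41 and 3.63 in NIKaly/aly samples 2, 4 and 6, against 3.24, 3.67 and 3.60 in WT samples 1, 3 and 5. Sample 1 was the lowest and sample 3 the highest, both WT, so the WT range enclosed the other. The difference was 0.048 ± 0.26 (SE, n = 3 each), with a 95% interval of -0.56 to 0.66. Without WT 1 it turned to -0.085.

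Casp9, the initiator that the apoptosome activates (probe at chr4:141371773-141371832), had levels of 2.24, 2.18 and 1.87 in NIKaly/aly, against 2.14, 1.76 and 1.93 in WT samples. Its difference of 0.15 ± 0.26 had a limma p of 0.578 and an interval of -0.45 to 0.75, and without WT 3 it was 0.059. Casp2, an initiator activated by the adaptor Cradd with Pidd1 (probe at chr6:42232367-42232426), had levels of 5.49, 5.32 and 5.14 in NIKaly/aly, against 5.59, 5.34 and 5.07 in WT samples. The levels of each consecutive pair nearly coincided, and the difference was -0.017 ± 0.29, with an interval of -0.69 to 0.66.

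Casp6, an effector that cuts lamin A, was the only effector among the members (probe at chr3:129616453-129616512). Its levels were 2.81, 2.27 and 1.82 in NIKaly/aly, against 2.28, 2.34 and 2.08 in WT samples. The 3 NIKaly/aly samples held both the highest and the lowest level, with an SD of 0.50 against 0.14 in WT. The difference of 0.067 ± 0.32 had an interval of -0.66 to 0.79, and without NIKaly/aly 2 it turned to -0.19.

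Fadd, the adaptor that links death receptors to Casp8, had levels of 1.51, 0.72 and 0.50 in NIKaly/aly, against 1.81, 0.96 and 0.12 in WT samples. Levels were highest in samples 1 and 2 and lowest in samples 5 and 6, whatever the genotype. The difference was -0.055 ± 0.47, with an interval of -1.14 to 1.03, and it turned to 0.37 without WT 1. The files place 40 of this probe's 60 bases on the genome, at chr7:151764228-151764267.

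Apaf1, the scaffold of the apoptosome (probe at chr10:90452580-90452639), was well above background on 4 of 6 arrays, not on NIKaly/aly 6 and WT 1. Its levels were -0.81, -1.18 and -2.15 in NIKaly/aly, against -1.66, -1.21 and -0.82 in WT samples. The 2 arrays without that call gave the lowest levels of their genotypes. They were also the dimmest arrays, with 75th percentiles of processed signal of 50.8 and 47.0, against 80.2 to 225 on the others. Its difference of -0.15 ± 0.47 had an interval of -1.23 to 0.93, and it turned to 0.24 without NIKaly/aly 6.

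Cflar encodes c-FLIP, whose long form resembles Casp8 without its protease activity and whose short forms stop after the death effector domains. Cflar probe 2 had levels of 1.24, 1.65 and 1.44 in NIKaly/aly, against 0.64, 1.44 and 1.41 in WT samples. WT 1 lay below the other 5, and the difference was 0.28 ± 0.31, with an interval of -0.44 to 1.002. Without WT 1 it was 0.019. Cflar probe 1 had levels of 1.55, 0.88 and 1.03 in NIKaly/aly, against 0.80, 0.80 and 1.25 in WT samples. Here NIKaly/aly 2 was the highest, and the difference was 0.21 ± 0.30, with an interval of -0.48 to 0.89. Without NIKaly/aly 2 it was 0.010.

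Both probes for Cflar transcript variant 1 were lowest in samples 1 and 2, as was Cflar probe 2, for transcript variant 2. Cflar probe 4 had levels of -0.40, 0.87 and 0.58 in NIKaly/aly, against -0.28, 0.76 and 0.46 in WT samples. Samples 1 and 2 thus lay below the other 4, with 1 from each genotype. Its difference was 0.034 ± 0.43, with an interval of -0.96 to 1.03.

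Cflar probe 3 had levels of -2.33, -0.58 and -0.85 in NIKaly/aly, against -1.29, -0.73 and -0.88 in WT samples. It was not well above background on NIKaly/aly 2 and WT 1, the 2 lowest. Its difference of -0.29 ± 0.51 had an interval of -1.47 to 0.90, and without NIKaly/aly 2 it turned to 0.25. The 4 Cflar probes thus did not follow 1 pattern: in NIKaly/aly 2, probe 1 gave its highest level of the 6 arrays and probes 3 and 4 their lowest.

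Xiap, the inhibitor of Casp9 (probe at chrX:39462720-39462779), had levels of 2.73, 2.70 and 2.45 in NIKaly/aly, against 2.69, 2.61 and 2.36 in WT samples. Within each consecutive pair the NIKaly/aly sample lay slightly above the WT sample, by 0.042, 0.096 and 0.093, while the ranges of the genotypes overlapped. The difference was 0.077 ± 0.25, with an interval of -0.51 to 0.66, and without WT 5 it turned to -0.020.

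How large a difference these arrays could miss varied among the members. For 6 of 11 probes the 95% interval lay within 2-fold in both directions (54.5%), against 34.2% of all tested probes. The largest fold that the interval allowed, in either direction, was 1.58-fold for Casp8 and Xiap, 1.61-fold for Casp2, 1.69-fold for Casp9, 1.73-fold for Casp6 and 1.86-fold for Cflar probe 1. Those of Cflar probes 2 and 4 reached 2.003-fold and 2.04-fold. For Fadd, Apaf1 and Cflar probe 3 the intervals reached 2.21-fold, 2.35-fold and 2.77-fold. These bounds rest on the scaling: with each array's median in its place, the standard errors of the 11 probes were 0.55 to 0.66, against 0.25 to 0.51 here.

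**Figure D2:**
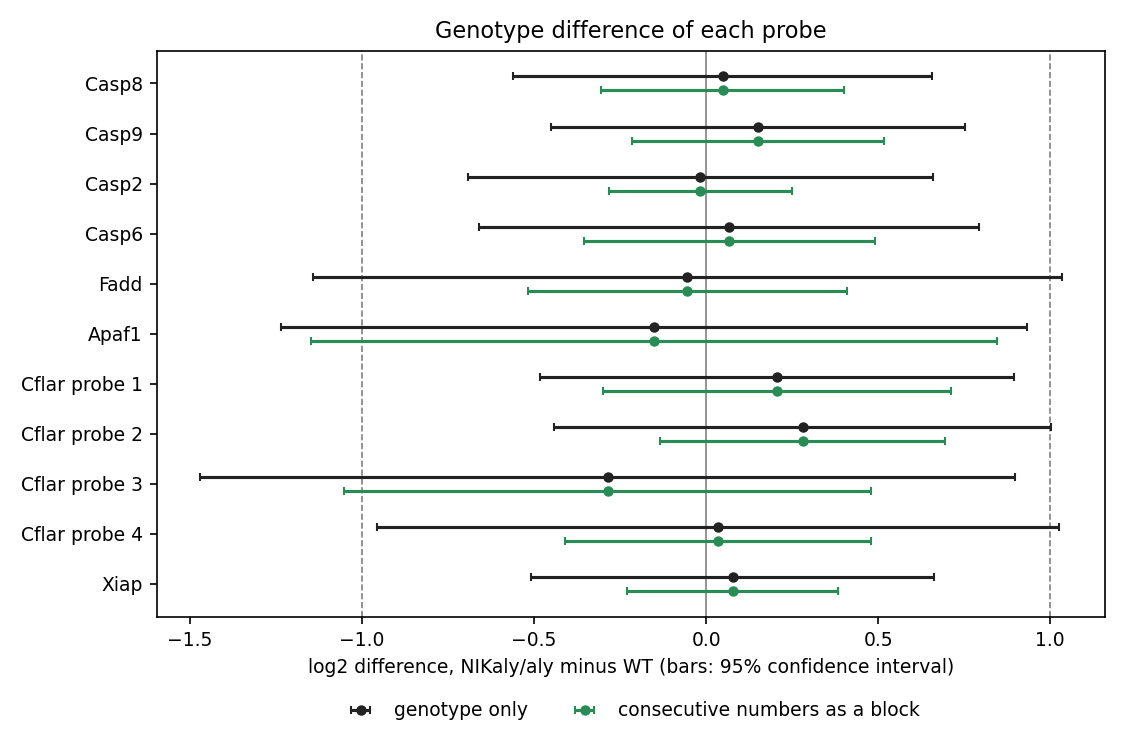
Difference in log2 level, NIKaly/aly minus WT (horizontal axis), for the 11 member probes. Each difference is drawn with 95% limma intervals from the fit with genotype only and from the fit with consecutive numbers as a block. Each interval includes 0. With genotype only they run from Xiap at -0.51 to 0.66 to Cflar probe 3 at -1.47 to 0.90.

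Differences within consecutive pairs (2 minus 1, 4 minus 3, 6 minus 5) took different signs for most members. Casp8 gave 0.37, -0.26 and 0.032, Casp6 gave 0.53, -0.070 and -0.26, and Apaf1 gave 0.85, 0.027 and -1.33. Only Cflar probe 2, at 0.60, 0.21 and 0.028, and Xiap had 1 sign in all pairs. These are 2 of 11 member probes, against 29.4% of all tested probes. The labels do not state that consecutive samples belong together. With the consecutive numbers as a block, limma called 2 of all tested probes (0.00943%) and no member probe, and Cflar probe 2 had the smallest member p, 0.156 unadjusted and 0.814 adjusted. At an unadjusted p under 0.05 that fit called 7.05% of all tested probes and 0 of the 11. The intervals of 9 of 11 member probes then lay within 2-fold (81.8%), against 75.3% of all tested probes.

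Arrays with consecutive numbers were closer to each other than arrays of 1 genotype for 9 of 11 member probes, all but Casp8 and Apaf1, the same 81.8% as over all tested probes. Fadd lay above its mean by 0.57 in NIKaly/aly 2 and 0.88 in WT 1, its 2 highest arrays under each of the 5 scaling and background settings compared. Cflar probe 4 deviated by -0.73 in NIKaly/aly 2 and -0.61 in WT 1, its 2 lowest arrays under the same 5 settings. Cflar probe 3 was lowest there in 4 of the 5, all but normexp background correction. Cflar probe 2 was lowest there in 3 of the 5, not with array median scaling or normexp. Casp2 was highest in samples 1 and 2 as scaled here but lowest there after quantile normalization.

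**Figure D3:**
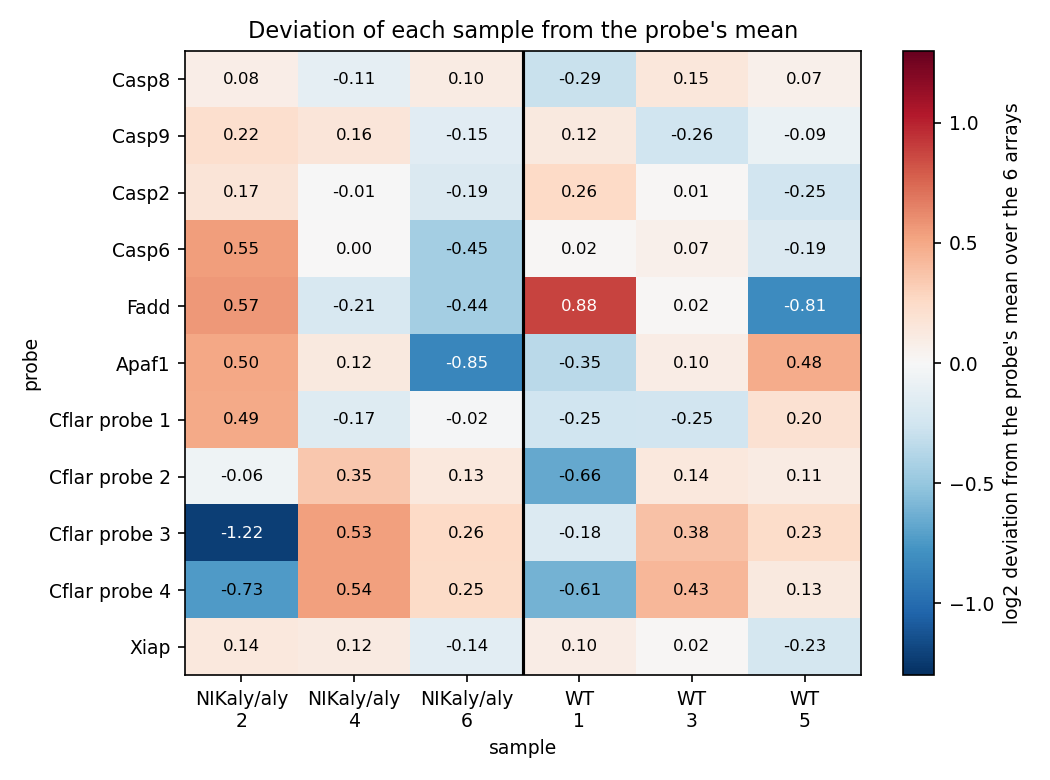
Deviation of each of the 11 member probes (rows) from its mean over the 6 arrays, in log2 units by colour, with NIKaly/aly columns left of WT columns. NIKaly/aly 2 and WT 1 are high for Fadd (0.57 and 0.88) and low for Cflar probe 4 (-0.73 and -0.61).

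Some marker lists of other cells moved with these samples and some did not. The 7 tested erythroid markers averaged 3.23, -0.71 and 0.60 in NIKaly/aly 2, 4 and 6, against 3.51, -0.10 and 0.49 in WT 1, 3 and 5, and so were highest in samples 2 and 1, where Fadd was highest. The 10 mature neutrophil markers averaged 6.94, 4.63 and 6.37 in NIKaly/aly and 7.44, 4.74 and 6.43 in WT samples, so that samples 3 and 4 lay furthest from the rest. The 8 tested B cell markers averaged 1.41, -1.34 and 0.16 in NIKaly/aly, against 2.34, -0.059 and 0.93 in WT samples. The 8 tested T and NK cell markers averaged 1.69, -0.26 and 1.33 in NIKaly/aly, against 2.33, 0.52 and 1.11 in WT samples. The neutrophil, B cell, and T and NK cell lists were thus highest in samples 2 and 1 as well, as the erythroid list was. The 7 tested macrophage and dendritic cell markers averaged 1.34, -0.23 and 0.92 in NIKaly/aly, against 1.69, 0.73 and 1.92 in WT samples, and were highest in WT 5. Means were lower in NIKaly/aly for all 10 neutrophil, all 8 B cell and all 7 macrophage and dendritic cell markers. So were 5 of 7 erythroid and 6 of 8 T and NK cell markers, against 8073 of 15684 tested genes. List medians ran from -1.01 for macrophage and dendritic cell markers to -0.16 for neutrophil markers. At an adjusted p under 0.05 limma called 0 of these markers. Without samples 1 and 2, the difference was 0.072 for Fadd, 0.091 for Cflar probe 3 and -0.16 for Casp6, and no member probe was called. The part of these cells in the levels of Fadd and Cflar, or in the genotype differences, was not tested.

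Standard deviations over the 6 arrays ran from 0.153 for Xiap to 0.644 for Cflar probe 3, with a median of 0.327 over member probes and 0.482 over all tested probes. Xiap, Casp8, Casp9 and Casp2 lay in the lowest 10% of tested probes. That rank depended on the scaling: after quantile normalization 2 of them, Casp9 and Xiap, lay there, and with scaling to the array median 0 did.

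Over the 6 arrays Casp2 and Fadd followed each other (r = 0.98), as did Cflar probes 3 and 4 (r = 0.89), while Fadd and Cflar probe 4 ran against each other (r = -0.75). All these points share the same 6 libraries and the same scaling, and the correlations are given for this scaling only. After quantile normalization Casp2 deviated by -0.25 in NIKaly/aly 2 and -0.16 in WT 1, its 2 lowest arrays. Fadd was highest there, at 0.47 and 0.80. Of 10887 genes, those most like Casp8 were Napg and Ppig (r = 0.98 and 0.96), and those most like Casp9 were Wls and Slc30a4 (r = 0.98 and 0.96). Nearest to Fadd were Flot1 and Fam26f (r = 0.998 and 0.997), and nearest to Casp2 were Tmco4 and Nosip (r = 0.998 each). Nono and Cluap1 lay closest to Casp6 (r = 0.997 each), Zfp623 and Inpp4b to Apaf1 (r = 0.990 and 0.986), Dock1 and Tnip2 to Cflar probe 2 (r = 0.995 each), and Elp4 and Rbm45 to Xiap (r = 0.990 and 0.986). As scaled here, correlations above 0.9 were common for some members, with 1397 genes for Fadd and 1093 for Casp2. They were rare for others, with 19 for Casp8 and 20 for Casp9. These counts and the nearest genes may differ under another scaling, which was not tested.

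Nor was a difference detected in the other genes of the pathway. Of 50 genes in 5 lists, 45 were tested with 1 probe each; 25 had a higher mean in NIKaly/aly and 20 a lower one, with a median difference of 0.054. At an adjusted p under 0.05 limma called 0 of them, and at an unadjusted p under 0.05 also 0, against 1.33% of all tested genes. Among the other caspases listed, 2 of 4 were tested, both with a higher mean in NIKaly/aly, while Casp12 and Casp14 were too dim. These were the inflammatory caspases Casp1 and Casp4. Casp1, which processes interleukin-1 beta, had levels of 3.83, 3.41 and 3.27 in NIKaly/aly, against 3.45, 3.20 and 3.01 in WT samples. Its groups overlapped, with a difference of 0.29 ± 0.28. Casp4, which senses cytosolic lipopolysaccharide, had levels of 3.73, 4.36 and 4.53 in NIKaly/aly, against 3.81, 3.60 and 4.31 in WT samples, a difference of 0.30 ± 0.33.

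Of the 16 death ligands, receptors and receptor adaptors, 15 were tested, 7 higher and 8 lower, with a median of -0.0085, and Fasl was too dim. Fas, a receptor that recruits Fadd, had levels of -1.33, -2.14 and -1.58 in NIKaly/aly, against -0.65, -1.93 and -1.04 in WT samples, a difference of -0.48 ± 0.47. Tnfrsf10b, the mouse TRAIL receptor, had a difference of 0.62 ± 0.34, with a limma p of 0.104. Ripk1, a kinase of the TNF receptor complex, differed by 0.17 ± 0.26. Pidd1 differed by -0.22, and another, dimmer Pidd1 probe by 0.021 ± 0.46.

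Among mitochondrial and apoptosome factors 8 of 9 were tested, 3 higher and 5 lower, with a median of -0.032. Htra2, a protease that relieves inhibition by Xiap, differed by -0.22, the mitochondrial flavoprotein Aifm1 by 0.18, the nuclease Endog by -0.16 and Ppif (cyclophilin D) by 0.069.

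Of the other inhibitors of apoptosis 10 of 11 were tested, 6 higher and 4 lower, with a median of 0.073. Birc2 and Birc3 differed by 0.23 and 0.22, and another Birc3 probe by 0.68 ± 0.54. Xaf1, an antagonist of Xiap, had levels of 2.45, 2.15 and 1.75 in NIKaly/aly, against 2.61, 2.40 and 2.42 in WT samples, a difference of -0.36 ± 0.28. A dimmer Xaf1 probe had levels of -3.79, -2.85 and -3.61 in NIKaly/aly, against -3.66, 1.11 and 0.56 in WT samples. It was well above background on 1 NIKaly/aly and 2 WT arrays, and its difference of -2.75 ± 1.16 had an unadjusted limma p of 0.0441. Naip2 differed by -0.28, and probes of its near-identical family are uncertain.

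All 10 genes of the caspase substrate list were tested, 7 higher and 3 lower, with a median of 0.079. Lmna, which encodes the Casp6 substrate lamin A, had levels of 4.14, 3.13 and 4.93 in NIKaly/aly, against 3.58, 1.996 and 4.08 in WT samples. Its NIKaly/aly sample was the higher in each consecutive pair, though the genotypes overlapped, and the difference was 0.85 ± 0.62. It was 0.24 without WT 3, 0.42 without NIKaly/aly 6 and 1.32 without NIKaly/aly 4. Dffb, the caspase-activated DNase, differed by 0.47 ± 0.38, and is listed here through its inhibitor Dffa, which caspases cut. Acin1, a chromatin condensation factor, differed by -0.28 and Parp1, a DNA damage sensor, by -0.23. With consecutive numbers as a block, Lmna had an unadjusted p of 4.6e-04 and an adjusted p of 0.126, and Tnfrsf10b an unadjusted p of 0.0168. These were 2 of the 45 genes under 0.05 unadjusted, against 7.45% of all tested genes.

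**Figure D4:**
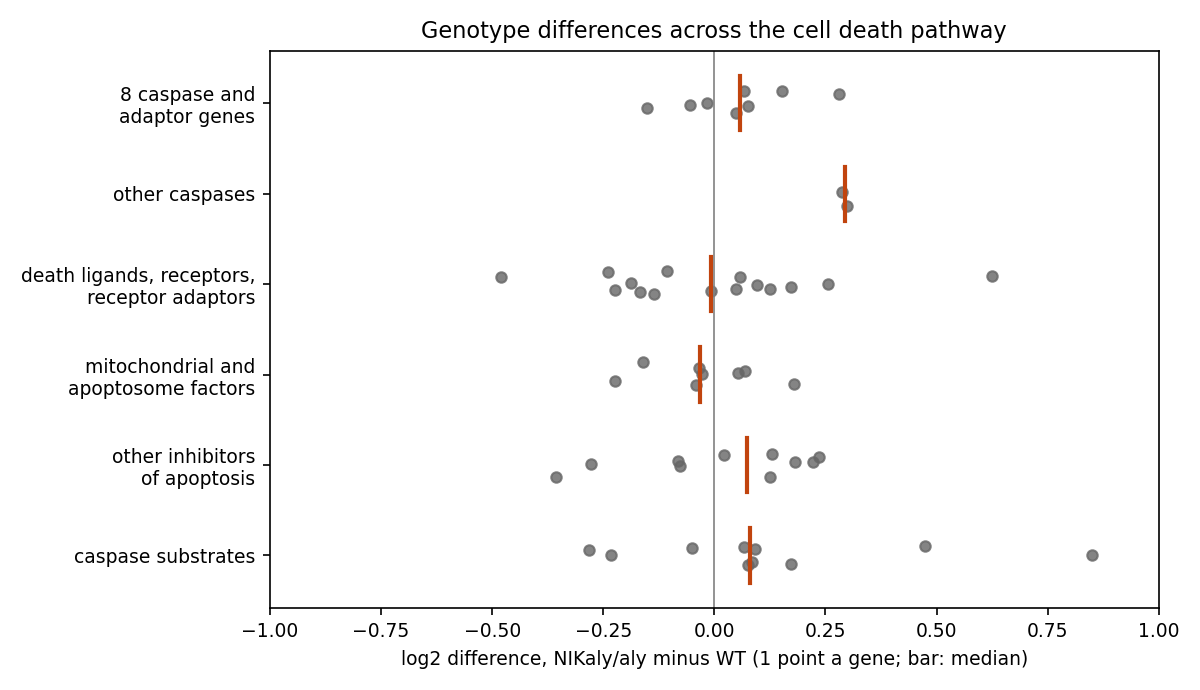
Difference in log2 level, NIKaly/aly minus WT, for the 45 tested genes of the 5 pathway lists and the members, 1 probe a gene, grouped by role, with a line at each group's median. Values lie on both sides of 0 in each group but the other caspases, whose 2 genes lie above it, between -0.48 for Fas and 0.85 for Lmna.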

How the data were processed

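Cy3-labelled RNA of each sample was hybridised to 1 array. The deposited files hold spot intensity from Agilent Feature Extraction (version 10.7.3.1 per the file headers), with background-subtracted processed signals and mm9 probe positions. The authors' deposited series table holds a ratio, each processed signal over its array's median, and served through the equivalent median scaling as an alternative. Here log2 processed signal was taken minus the 75th percentile of 59305 non-control spots on that array, control and outlier spots were left out, and spots of a probe were averaged. Probes well above background on at least 3 of 6 arrays were tested, less 22 lacking a value, with limma 3.58.1 in R 4.3.3 (lmFit, eBayes with trend, genotype only, two-sided, Benjamini-Hochberg over all tested probes). For lists, the probe with the highest mean stood for a gene.

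Members and lists were chosen with earlier results of these data known. Pathway genes named are, of each list, up to the 4 with the smallest unadjusted p. Some genes of these lists are not reported here. For likeness, the 2 genes with the highest Pearson r per member are named. No sample number is shared between genotypes; consecutive numbers as a block, scaling, background, dim-probe filter, slide row, array weights and left-out samples were tried as alternatives. The number of arrays limits the precision, as do the scaling and, for dim probes, the signal.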

Additional observations from a re-analysis of the deposited data

How the results depend on the processing

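No member probe and no pathway gene was called in any of 20 alternatives, and the smallest adjusted p of a member probe was 0.814. All probes called numbered 0, but 5 with array median scaling, 1 with normexp, 12 without a filter, 2 with the consecutive block, and 0 to 1 without single samples. The genotypes share no sample number, so the consecutive block is a pairing that the labels do not state. Of 212 member values under alternatives, 33 changed sign, and 8 of 11 probes did so without single samples; the differences were near 0, and the cause was not tested. Differences that changed sign (log2, NIKaly/aly minus WT) were, with array median scaling, Casp2 0.082 and Fadd 0.044. With quantile normalization Casp2 gave 0.013. With normexp, Casp2 gave 0.065, Fadd 0.0089 and Cflar probe 4 -0.020. Within slide row 1 (samples 1 to 4), Apaf1 gave 0.44, Cflar probe 4 -0.0070 and Birc3 -0.022; row 2 held 1 sample of each genotype. With array weights, Casp8 gave -0.17, Casp2 0.031, Casp6 -0.025, Cflar probe 3 0.11 and Birc3 -0.053. Without samples 1 and 2, Casp8 gave -0.11, Casp2 0.023, Casp6 -0.16, Fadd 0.072, Cflar probe 1 -0.065, Cflar probe 3 0.091 and Ppif -0.10. Without single samples, the ranges were -0.085 to 0.13 for Casp8, -0.15 to 0.11 for Casp2, -0.19 to 0.31 for Casp6, -0.48 to 0.37 for Fadd, -0.44 to 0.24 for Apaf1, -0.62 to 0.25 for Cflar probe 3, -0.26 to 0.41 for Cflar probe 4 and -0.020 to 0.17 for Xiap. Without a change of sign, they were 0.059 to 0.26 for Casp9, 0.010 to 0.36 for Cflar probe 1, 0.019 to 0.42 for Cflar probe 2 and 0.24 to 1.32 for Lmna. With a change of sign, pathway genes gave -0.52 to 0.055 for Acin1, -0.088 to 0.40 for Birc2, -0.18 to 0.46 for Birc3, -0.46 to 0.11 for Htra2, -0.11 to 0.43 for Aifm1, -0.78 to 0.47 for Endog and -0.25 to 0.35 for Ppif. Signal limits the reading of Apaf1 and Cflar probe 3, each well above background on only 4 of 6 arrays. Over all non-control spots, the share well above background was 33.1% to 45.6% per array.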
